A study of Mus musculus with 8 samples.

Results

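The ephrin, Slit-Robo and netrin families hold the secreted and membrane-bound cues, and their receptors, that steer growing axons and sprouting vessels. Members were taken by gene symbol alone, as the ephrins (Efna and Efnb), the Eph receptors (Epha and Ephb), the Slits and Robos, the netrins and netrin-G proteins, Dcc and the Unc5 receptors, and each was read from the probe set naming only that gene with the highest mean over all 8 arrays. This gave 39 genes of the 18193 tested, 17 of them ligands and 22 receptors. Ephb2 was not named by the annotation and is not analysed here. RNA came from GFP-positive cells sorted from the cortex or the lungs of E13.5 mouse embryos of a homozygous Tie2-GFP strain, with no treatment and no other allele in either group. GFP in these embryos marks cells in which the Tek (Tie2) promoter is active, chiefly endothelial cells, so the sort selects by that promoter and not by a guidance gene. For each array the embryos of a litter, 10 to 13 of them, were pooled, and there were 4 arrays per tissue, numbered 72, 22, 19 and 18 in both. The comparison asks how the GFP-positive cells sorted from the developing cortex differ from those of the lung. Neuronal markers were high on the cortex arrays, as given below, and a difference cannot be assigned to vessel cells alone.

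Ephrins are bound to the cell surface and signal both into the cell that carries the Eph receptor and back into their own. Ephrin-B2 marks arteries and its receptor EphB4 marks veins, a division that is set up before blood flow. Slits are secreted and act through Robo receptors, of which Robo4 is the endothelial member. Netrins attract through Dcc and repel through the Unc5 receptors, and Unc5b is the member found on sprouting tip cells. In the developing cortex the same families guide axons and migrating neurons.

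The deposited values were log2 expression per probe set, with array medians of 6.59 to 6.72. Levels of different genes come from different probes and were not compared with each other. The description field of the arrays numbered 19 and 18 names the other tissue, and titles, source names and tissue labels were followed. The mean of 15 neuronal markers lay between 11.07 and 11.69 on the cortex arrays and between 6.41 and 6.72 on the lung arrays, and 14 of the 15 were called higher in cortex. With the labels followed here, that mean was 11.10 and 11.69 on cortex 19 and 18. On lung 19 and 18 it was 6.41 and 6.72, so these arrays separated by tissue label as 72 and 22 did. The mean of 32 pan-endothelial markers was 9.86, 11.14, 11.30 and 9.44 on cortex arrays 72, 22, 19 and 18 and 11.33 to 11.84 on the lung arrays, with 11 of the 32 called higher in lung and 0 in cortex. The mean of 11 mesenchymal markers ran from 5.96 to 6.49 in cortex and from 7.39 to 9.19 in lung, where it was highest on array 72 and lowest on array 18. The mean of 10 macrophage markers ran from 5.73 to 8.63 in cortex and from 5.14 to 6.29 in lung, and 4 of them were called higher in cortex. The means of 6 erythroid markers, 7.04 to 8.14 in cortex and 6.32 to 6.70 in lung, and of 6 interneuron markers, 9.43 to 10.61 and 5.83 to 6.47, did not overlap between tissues. Nor did the mean of 10 neural progenitor markers, 10.64 to 11.25 in cortex and 6.66 to 7.07 in lung, of which 9 were called higher in cortex. The part of any of these cell types in the differences below was not tested. On pooled cells, fewer cells of a type and less RNA per cell cannot be told apart.

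Guidance genes were more often called higher in cortex than higher in lung. At an adjusted p under 0.05 (limma), 11 of the 39 members rose in cortex, 28.2%, beside 10.4% of all genes, and 1, Ephb4, was higher in lung, 2.56%, beside 7.71% of all genes. The remaining 27 were not called, with differences from -1.44 to 1.15 log2 units. The calls towards cortex fell on 9 of 22 receptors, 40.9%, and on 2 of 17 ligands, 11.8%, which is near the 10.4% of all genes. The single call towards lung was a receptor. This split between receptors and ligands depended on how the genes were read. The mean of all probe sets gave 8 receptors and 6 ligands higher in cortex, beside 1807 of all genes. Array weights gave 9 and 6, beside 2204, and the probe set with the highest variance 9 and 4, beside 1841. In the main fit the contrast lay in the calls and not in the medians of cortex minus lung, 0.76 log2 units for ligands and 0.45 for receptors. The mean was higher in cortex for 11 of 17 ligands and 14 of 22 receptors. The median difference, cortex minus lung, was 0.53 log2 units over the members and -0.09 over all genes. It was 0.33 beside -0.30 after median centring of the arrays and 1.75 beside 1.13 after every array was shifted to the same pan-endothelial mean. Both scalings add the same constant to every difference, so the distance between the medians is unchanged by construction. A single gene that shrank or changed sign under them did so through that constant, which is no separate check on the gene. Centring also turned the balance of calls over all genes, from 1888 towards cortex and 1403 towards lung to 1564 and 2410. With a difference of at least 2-fold as well, 10 members were called higher in cortex and 1 in lung, beside 7.89% and 4.95% of all genes. For 14 members every cortex array was above every lung array, and for 4 the reverse held, beside 12.5% and 12% of all genes. Of the 39 members, 20 had a mean above that of the median gene, and 8 of these were called higher in cortex when only such genes were fitted, beside 1284 of 9096 genes. Ephb6, Robo2 and Unc5d, called higher in cortex over all genes, were below that level and not in this fit. Leaving out arrays one at a time or by number gave 8 to 12 members higher in cortex and 0 to 2 higher in lung, with 0 without both arrays numbered 72, and 2 without cortex 19, which added Robo4, or without lung 22, which added Unc5c. Without the arrays numbered 19 and 18, which leaves 2 per tissue, 4 members (Dcc, Epha4, Robo2 and Unc5d) were called higher in cortex and 0 in lung.

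**Figure D1:**
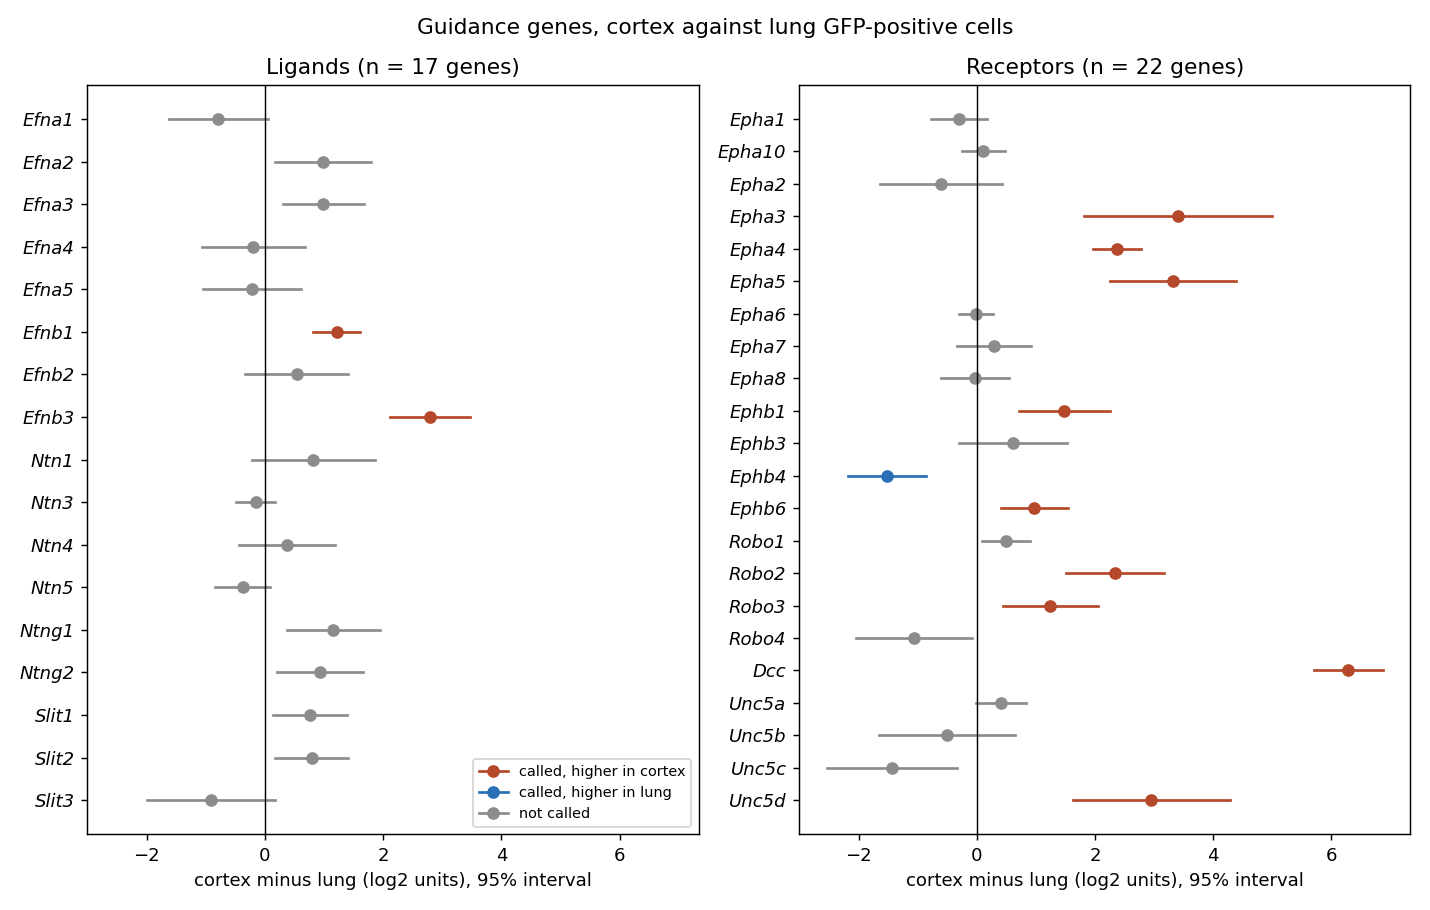
Difference between cortex and lung for all 39 guidance genes, ligands on the left and receptors on the right, as cortex minus lung in log2 units with the 95% confidence interval from limma (n = 4 arrays per tissue). Dcc stands farthest to the right at 6.29, and Ephb4 at -1.52 is the only gene called higher in lung.

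Among the 8 ephrins, the transmembrane B class carried both calls with the probe set used for each gene. Values below are in the order of arrays 72, 22, 19 and 18. Efnb1 (probe set 1418286_a_at), whose product is ephrin-B1, lay at 10.29, 10.33, 9.84 and 10.33 in cortex and at 9.09, 8.80, 8.79 and 9.25 in lung. Every cortex array was above every lung array. The difference was 1.21 log2 units (SE 0.17, 2.32-fold, adjusted p = 0.00177), and all 3 of its probe sets were called in this direction. Efnb3 (1423085_at), the ephrin of the midline and of cortical neurons, lay at 9.76, 8.86, 9.38 and 9.77 in cortex and at 7.34, 6.20, 6.72 and 6.34 in lung. The groups were apart by more than the spread of either, with a difference of 2.79 (SE 0.30, 6.93-fold, adjusted p = 0.000341). Both genes kept their call without any 1 array.

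Efnb2 (1419639_at), the arterial ephrin, lay at 11.04, 11.49, 10.96 and 11.05 in cortex and at 10.96, 11.02, 11.09 and 9.33 in lung. The tissues overlapped except for lung 18, which was low. The difference of 0.53 (SE 0.38, 95% interval -0.34 to 1.41, adjusted p = 0.379) was not called. Without lung 18 the difference was 0.11, and it was called only after pan-endothelial scaling (1.75, adjusted p = 0.0136).

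The A-class ephrins, held to the membrane by a lipid anchor, gave no call among 5. That number is too small to set against the 10.4% of all genes called higher in cortex. Efna1 (1416895_at), the ephrin of vessels induced by inflammatory signals, lay at 9.81, 10.95, 10.87 and 9.22 in cortex and at 11, 11.02, 11.02 and 10.96 in lung. All cortex arrays were below all lung arrays, arrays 22 and 19 narrowly, and the lung arrays were almost equal. Its difference was -0.79 (SE 0.37, 95% interval -1.63 to 0.05, adjusted p = 0.186), and it turned to 0.43 after pan-endothelial scaling (adjusted p = 0.491). Efna2 (0.98, adjusted p = 0.0925) and Efna3 (0.99, adjusted p = 0.0523) had higher means in cortex without passing. Efna2 passed without lung 72 (1.25, adjusted p = 0.0338), and Efna3 without cortex 19 (1.14, adjusted p = 0.0457) or lung 22 (1.24, adjusted p = 0.0132). Each had a second probe set called higher in cortex (1.07 and 1.29, adjusted p = 0.0462 and 0.0366 over all probe sets). Both genes passed when their probe sets were averaged (1.03, adjusted p = 0.0351, and 1.14, adjusted p = 0.0266). Efna4 (-0.20, 95% interval -1.07 to 0.67) and Efna5 (-0.22, -1.05 to 0.61) overlapped fully between tissues.

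Of the 9 EphA receptors, which bind mainly A-class ephrins, 3 rose in cortex and 6 were not called. Epha4 (1429021_at), which also binds B-class ephrins and is broadly expressed in the embryonic forebrain, lay at 11.64, 11.91, 11.31 and 11.85 in cortex and at 9.29, 9.14, 9.60 and 9.19 in lung. The arrays of each tissue were close together and far from those of the other. Its difference was 2.37 (SE 0.18, 5.18-fold, adjusted p = 4.94e-05), and its 5 probe sets gave 2.2 to 2.54, all called. Epha5 (1437920_at), a receptor of forebrain neurons, lay at 10.47, 10.54, 10.37 and 11.02 in cortex and at 5.88, 7.85, 7.10 and 8.30 in lung. The spread lay in the lung arrays, and none reached a cortex value. The difference was 3.32 (SE 0.47, 9.96-fold, adjusted p = 0.00162).

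Epha3 (1425575_at), a receptor of neural and mesenchymal cells, lay at 10.97, 10.62, 10.55 and 10.94 in cortex and at 9.38, 6.33, 8.0 and 5.79 in lung. The cortex arrays lay close together, while the lung arrays spread widely, with 72 highest and 18 lowest. That is the order of the mesenchymal list on the lung arrays (9.19, 8.10, 8.52 and 7.39 on 72, 22, 19 and 18). It was seen for 7 of the 39 members, 17.9%, beside 15% of all genes, so the order is no result about the members. Besides Epha3 these were Efna4, Epha2, Epha7, Robo1, Slit2 and Slit3. The part of mesenchymal RNA in these values was not tested. The difference of Epha3 was 3.40 (SE 0.70, 10.5-fold, adjusted p = 0.0107), and it was not called without both arrays numbered 22 (3.10, adjusted p = 0.0642).

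Epha2 (1421151_a_at), the EphA receptor best known from vessel sprouting, lay at 6.02, 7.53, 7.14 and 5.70 in cortex and at 7.75, 6.89, 7.64 and 6.52 in lung. The tissues overlapped, with cortex 72 and 18 below every lung array. The difference of -0.60 (SE 0.45, 95% interval -1.64 to 0.43, adjusted p = 0.40) turned to 0.61 after pan-endothelial scaling (adjusted p = 0.326). Epha7, a receptor of cortical patterning, differed by 0.29 (95% interval -0.34 to 0.92). Epha1, Epha6, Epha8 and Epha10 had differences from -0.30 to 0.11, and their values did not exceed 6.97 on any array. For Epha1 another probe set was called higher in lung (-0.92, adjusted p = 0.0168 over all probe sets).

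Among the 4 EphB receptors measured, 2 rose in cortex and 1 was higher in lung. Ephb4 (1449845_a_at), the venous receptor for ephrin-B2, lay at 7.98, 8.84, 8.92 and 7.77 in cortex and at 10.25, 9.64, 10.00 and 9.70 in lung. No cortex array reached a lung array. Its difference was -1.52 (SE 0.29, 2.87-fold higher in lung, adjusted p = 0.00765). It kept its call without any 1 array, but not without both arrays numbered 72 (-1.27, adjusted p = 0.0584), and pan-endothelial scaling reduced it to -0.30 (adjusted p = 0.629). Ephb1 (1455188_at), which guides retinal and callosal axons, lay at 10.22, 8.91, 8.90 and 9.75 in cortex and at 8.54, 7.79, 7.60 and 7.93 in lung. Its tissues did not overlap, and cortex 72 and 18 were the higher cortex arrays. The difference of 1.48 (SE 0.34, 2.79-fold, adjusted p = 0.0177) lost its call without cortex 18 (1.38, adjusted p = 0.0516) or lung 19 (1.36, adjusted p = 0.0532). It was also lost without both arrays numbered 22 (1.6, adjusted p = 0.0506) or both numbered 18 (1.37, adjusted p = 0.0974).

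Ephb6 (1418051_at), a member without kinase activity, lay at 7.35, 6.92, 6.43 and 6.79 in cortex and at 6.23, 5.37, 6.02 and 5.99 in lung. Cortex 19 came close to lung 72, and the groups were otherwise apart. Its difference was 0.97 (SE 0.25, 1.96-fold, adjusted p = 0.0276). It was no longer called when cortex 72, 22 or 18, or lung 22, 19 or 18, was left out (0.79 to 1.01, with adjusted p-values from 0.0504 to 0.0682). Ephb3, another EphB receptor, differed by 0.61 (95% interval -0.30 to 1.52, adjusted p = 0.334).

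**Figure D2:**
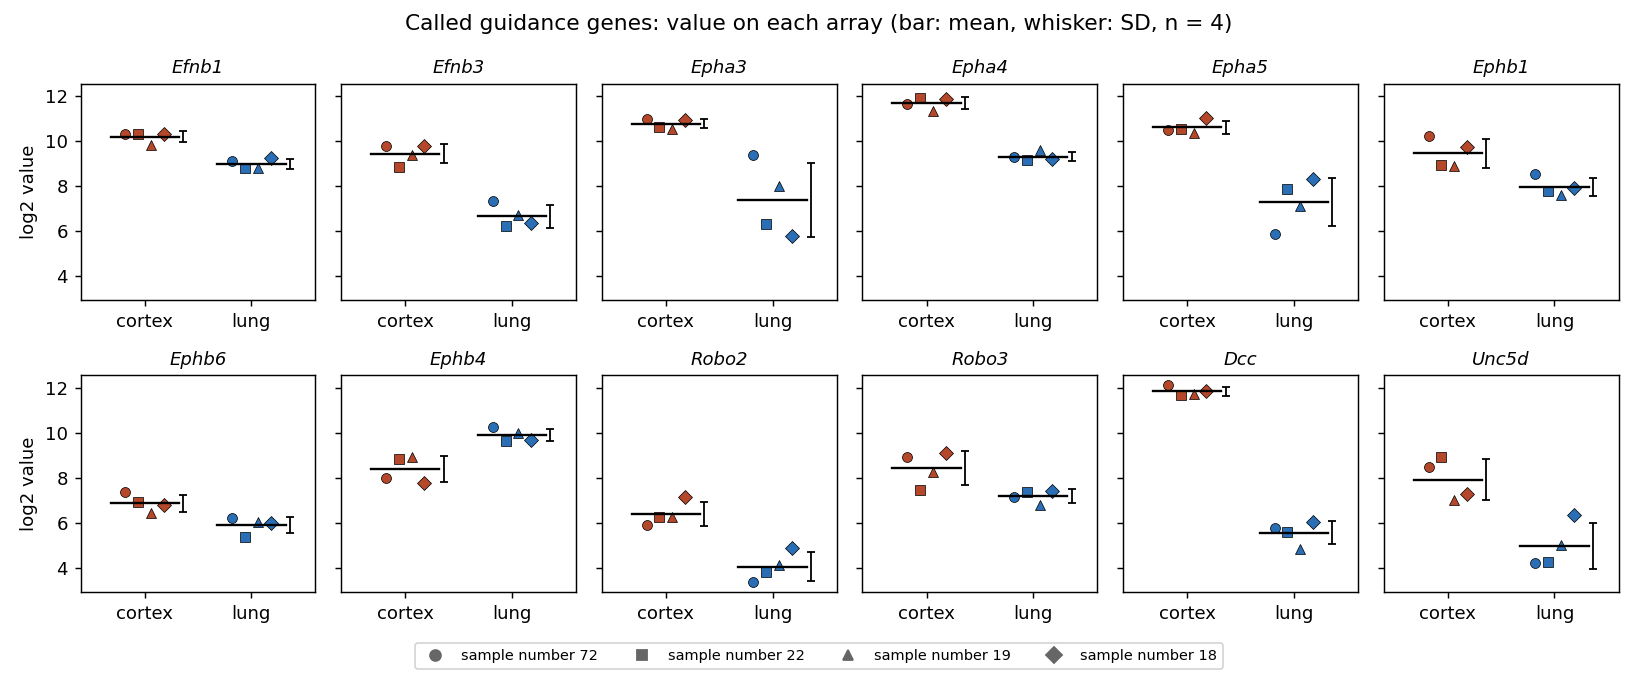
Log2 values of the 12 called guidance genes on each array, cortex in red and lung in blue, with a symbol for each sample number, the mean as a bar and the SD as a whisker (n = 4 per tissue). Ephb4 is the only panel in which the lung arrays, at 9.64 to 10.25, stand above the cortex arrays.

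The letters upstream of the arterial ephrin-B2 and its venous receptor EphB4, of which only Ephb4 was called, and of Efnb1 and Ephb1, a ligand and a receptor of the same class among those that rose in cortex, are shown as examples of sequence context. Windows from the RefSeq table of promoters (GRCm38.p6) were read for 34 of the 39 members. None was read for Dcc, Efnb3, Ntn1, Slit1 or Unc5d, and the member counts below leave these 5 out. The windows are the 250 bases before an annotated start, written 5′ to 3′ on the strand of the gene, with capitals marking GGAA, the core bound by ETS factors, or its reverse complement TTCC. Efnb2 is at chr8:8661243-8661492 on the minus strand, Ephb4 at chr5:137349859-137350108 on the plus strand, Efnb1 at chrX:99135811-99136060 on the plus strand and Ephb1 at chr9:102354694-102354943 on the minus strand.
Efnb2: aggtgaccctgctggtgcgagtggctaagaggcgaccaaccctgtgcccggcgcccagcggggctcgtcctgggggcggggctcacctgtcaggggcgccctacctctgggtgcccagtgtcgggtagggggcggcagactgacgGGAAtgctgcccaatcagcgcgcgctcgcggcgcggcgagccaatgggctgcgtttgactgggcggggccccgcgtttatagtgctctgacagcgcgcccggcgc
Ephb4: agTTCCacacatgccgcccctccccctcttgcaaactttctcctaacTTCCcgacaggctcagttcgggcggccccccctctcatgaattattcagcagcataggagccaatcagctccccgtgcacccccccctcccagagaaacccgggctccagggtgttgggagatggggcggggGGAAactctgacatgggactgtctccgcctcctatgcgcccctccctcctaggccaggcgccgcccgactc
Efnb1: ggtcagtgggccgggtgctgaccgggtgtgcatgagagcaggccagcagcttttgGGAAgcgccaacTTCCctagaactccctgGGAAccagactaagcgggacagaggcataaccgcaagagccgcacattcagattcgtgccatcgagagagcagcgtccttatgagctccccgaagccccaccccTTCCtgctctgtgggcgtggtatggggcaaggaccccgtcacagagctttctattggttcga
Ephb1: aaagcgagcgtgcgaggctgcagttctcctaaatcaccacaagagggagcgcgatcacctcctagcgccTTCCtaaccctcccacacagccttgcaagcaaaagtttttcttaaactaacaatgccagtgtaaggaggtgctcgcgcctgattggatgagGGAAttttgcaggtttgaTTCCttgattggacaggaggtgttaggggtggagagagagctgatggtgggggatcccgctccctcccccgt
The core occurred 1 time in the Efnb2 window, 3 times in that of Ephb4, 4 times in that of Efnb1 and 3 times in that of Ephb1. It was present for 30 of the 34 genes, and in 93.4% of all 32851 windows of this length in the table. The Sp1 box GGGCGG, counted on both strands, occurred 3 times for Efnb2 and 4 times for Ephb4, 0 times for Efnb1 and Ephb1, and 5 times for Ephb6, another EphB receptor that rose in cortex. It was present for 24 of the 34 genes, for 4 of the 8 with a window that rose in cortex, and in 32.7% of all windows. The windows of the members had a median GC content of 64.4%, beside 52.4% over all windows. A match describes letters and not a bound site.

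The 3 Slits gave no call, although their arrays did not overlap between tissues. Slit2 (1424659_at), the Slit best known from vessel growth, lay at 10.83, 11.11, 10.41 and 10.46 in cortex and at 10.31, 9.82, 10.28 and 9.25 in lung. The cortex arrays were all higher, cortex 19 and 18 only narrowly above lung 72. The difference was 0.79 (SE 0.27, 1.73-fold, adjusted p = 0.0827), and the gene passed when its 3 probe sets were averaged (0.43, adjusted p = 0.0467). Slit1 (1425277_at), a Slit of the nervous system, lay at 8.57, 7.34, 7.49 and 7.36 in cortex and at 6.85, 7.04, 6.83 and 6.98 in lung. Cortex 72 was far above the other cortex arrays. The difference of 0.76 (SE 0.27, adjusted p = 0.0914) was not called, whereas the other Slit1 probe set differed by 2.22 and was called (adjusted p = 0.000874 over all probe sets).

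Slit3 (1452296_at), a Slit of mesenchyme and vessel wall, lay at 5.83, 5.66, 5.72 and 5.60 in cortex and at 8.21, 5.90, 6.5 and 5.85 in lung. Lung 72 was high and the other lung arrays lay just above cortex. Their order was that of the mesenchymal list, as it also was for Slit2, and the part of mesenchymal RNA was not tested. The difference of -0.91 (SE 0.47, 95% interval -1.99 to 0.17, adjusted p = 0.233) was -0.38 without lung 72.

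Of the 4 Robo receptors, 2 rose in cortex. Robo2 (1458229_at), a receptor of commissural and cortical axons, lay at 5.90, 6.27, 6.26 and 7.14 in cortex and at 3.37, 3.82, 4.14 and 4.89 in lung. The tissues did not overlap, and array 18 was the highest in both. Its difference was 2.34 (SE 0.36, 5.05-fold, adjusted p = 0.00261). Robo2 was weakly read from its only probe set, with a mean at percentile 21.9 of all genes. The lowest values on the lung arrays were 2.88 to 2.96. Robo3 (1436634_at), which makes commissural axons insensitive to Slits before they cross the midline, lay at 8.93, 7.46, 8.24 and 9.09 in cortex and at 7.17, 7.38, 6.78 and 7.43 in lung. Cortex 22 was barely above the highest lung array. The difference of 1.24 (SE 0.35, 2.36-fold, adjusted p = 0.0423) lost its call whenever a single array except cortex 22 was left out (1.02 to 1.32, with adjusted p-values from 0.0635 to 0.110). A second Robo3 probe set gave -0.47 and was not called.

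Robo4 (1426206_at), the endothelial Robo, lay at 10.42, 11.49, 11.93 and 9.85 in cortex and at 11.87, 11.77, 11.92 and 12.39 in lung. Cortex 19 was within the lung range, cortex 22 just below it, and cortex 72 and 18 well below. The difference of -1.07 (SE 0.43, 95% interval -2.05 to -0.09, adjusted p = 0.128) passed only without cortex 19 (-1.41, adjusted p = 0.0405), and it was 0.15 after pan-endothelial scaling (adjusted p = 0.815). Robo1 (1427231_at), present on endothelium and neurons, lay at 11.09, 10.94, 11.08 and 11.05 in cortex and at 10.87, 10.59, 10.67 and 10.07 in lung. All cortex arrays were higher and close together, and the difference was 0.49 (SE 0.18, 1.41-fold, adjusted p = 0.100).

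The 6 netrin and netrin-G ligands gave no call. Ntn1 (1454974_at), the classical netrin, lay at 8.21, 6.36, 6.17 and 7.28 in cortex and at 6.88, 5.83, 6.13 and 5.89 in lung. Cortex 72 and 18 were high and the other cortex arrays were within the lung range. Its difference was 0.82 (SE 0.46, 95% interval -0.22 to 1.86, adjusted p = 0.260). Ntn4 (1439794_at), a netrin of basement membranes, lay at 9.36, 8.03, 8.21 and 8.87 in cortex and at 8.20, 8.72, 8.52 and 7.54 in lung. The tissues overlapped, with a difference of 0.37 (SE 0.35, 95% interval -0.43 to 1.18, adjusted p = 0.507). Ntn3 and Ntn5 differed by -0.16 and -0.38. The membrane-anchored netrin-G ligands, which act at synapses, had higher means in cortex without passing, Ntng1 by 1.15 (adjusted p = 0.0512) and Ntng2 by 0.94 (adjusted p = 0.0790). Ntng1 passed without cortex 19 (1.41, adjusted p = 0.0197) or lung 72 (1.35, adjusted p = 0.0358), and Ntng2 without cortex 22 (1.14, adjusted p = 0.0495).

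Of the 5 netrin receptors, Dcc and Unc5d rose in cortex and 3 were not called. Dcc (1440487_at), the attractive netrin receptor of growing axons, had the largest difference of all members. It lay at 12.11, 11.67, 11.72 and 11.86 in cortex and at 5.75, 5.60, 4.83 and 6.04 in lung. No other member separated the tissues by as much. The difference was 6.29 (SE 0.26, 78.1-fold, adjusted p = 2.23e-06), and its other probe sets, both called, gave 4.96 and 1.14. Unc5d (1440484_at), a receptor of migrating cortical neurons, lay at 8.46, 8.93, 7.0 and 7.29 in cortex and at 4.23, 4.24, 5.03 and 6.37 in lung. The spread was wide in both tissues, without overlap. Its difference was 2.95 (SE 0.58, 7.75-fold, adjusted p = 0.00869), and the call was lost without both arrays numbered 72 (2.53, adjusted p = 0.0675) or both numbered 22 (2.37, adjusted p = 0.0568).

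Unc5b (1435110_at), the Unc5 receptor of tip cells and arteries, lay at 7.62, 9.05, 8.63 and 6.41 in cortex and at 8.50, 8.31, 8.41 and 8.48 in lung. Cortex 22 and 19 were above every lung array, and cortex 72 and 18 below every one. The mean difference of -0.50 (SE 0.51, 95% interval -1.65 to 0.65, adjusted p = 0.530) lay between cortex arrays that were higher and cortex arrays that were lower than lung. It was 0.006 without cortex 18 and 0.72 after pan-endothelial scaling. Unc5c (1449522_at), an Unc5 receptor known from neurons and mesenchyme, lay at 8.19, 7.39, 8.26 and 8.37 in cortex and at 10.75, 8.50, 9.89 and 8.82 in lung. Every lung array was higher, 72 and 19 by the most, which were also the lung arrays with the highest mesenchymal means. The difference of -1.44 (SE 0.48, 2.71-fold higher in lung, adjusted p = 0.0745) passed without lung 22 (-1.77, adjusted p = 0.0405). It was -1.65 under median centring (adjusted p = 0.0137) and -0.22 after pan-endothelial scaling (adjusted p = 0.729), each through the constant added to every gene. Unc5a, a neuronal member, differed by 0.41 (adjusted p = 0.171).

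**Figure D3:**
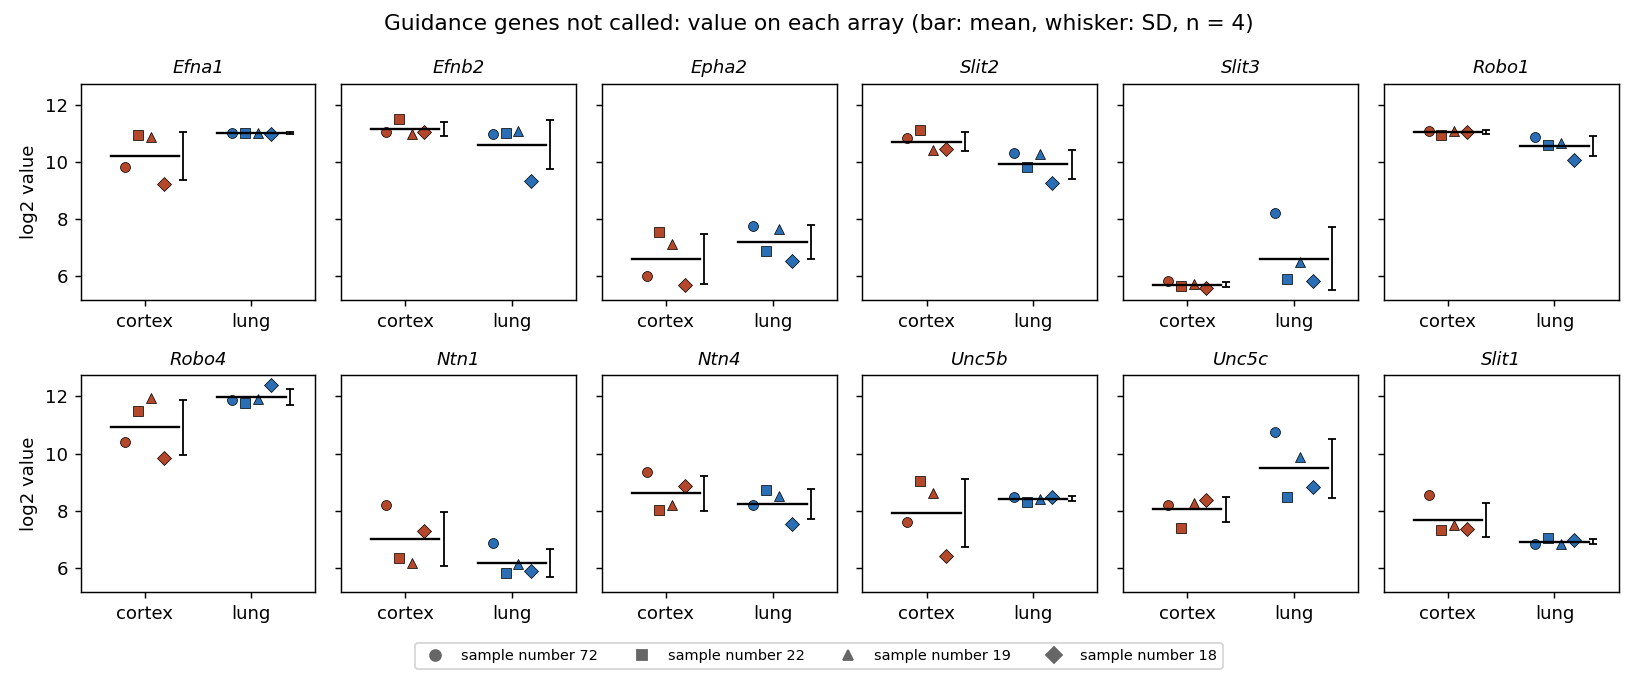
Log2 values on each array for 12 guidance genes that were not called, namely those with known roles in vessels and those whose arrays did not overlap, with the mean as a bar and the SD as a whisker (n = 4 per tissue). In the Unc5b panel the cortex arrays lie on either side of the lung arrays, which span 8.31 to 8.50.

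The cortex arrays differed among themselves, and the members divided by which arrays were high. Efna1, Epha2, Ephb4, Robo4 and Unc5b were highest on cortex 22 and 19, the arrays with the higher pan-endothelial means (11.14 and 11.30, beside 9.86 and 9.44). These 5 members were 12.8% of the 39, less than the 17.1% of all genes with that order, so the order is no result about the members. The opposite order, highest on cortex 72 and 18, was seen for 15 members, 38.5%, beside 28.8% of all genes, and these included Dcc, Efnb3, Epha3, Ephb1, Robo3 and Ntn1. Most of the 15 were not called, Efna5 and Epha8 among them. Efnb1, Epha4, Epha5, Ephb6, Robo2 and Unc5d were called higher in cortex and did not have this order. Cortex 72 and 18 had the higher neuronal means, 11.60 and 11.69, beside 11.07 and 11.10 on 22 and 19. Of the 5 members that were highest on cortex 22 and 19, Ephb4 alone was called. The part of endothelial and neural RNA in these orders was not tested.

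**Figure D4:**
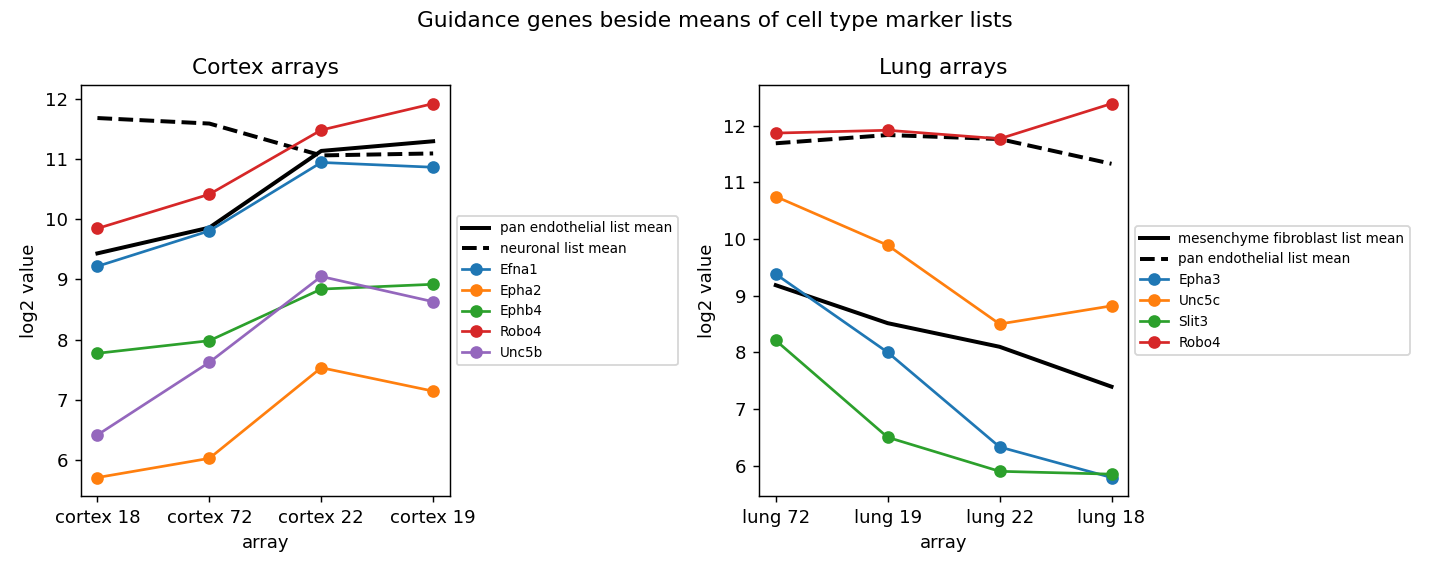
Guidance genes (coloured lines) beside the means of marker lists (black lines) on each cortex array, left, and each lung array, right, in log2 units. Robo4 runs from 9.85 on cortex 18 to 11.93 on cortex 19 as the pan-endothelial mean runs from 9.44 to 11.30, but is highest on lung 18 (12.39), where that mean is lowest (11.33). Epha3 runs from 9.38 on lung 72 to 5.79 on lung 18; heights of different lines come from different probes and do not compare.

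Other genes of the same pathways were read from lists of partners and effectors. Of 21 partners of ephrin signalling, 6 rose in cortex and 1 was higher in lung, and of 13 partners of Slit signalling 5 rose in cortex and 1 was higher in lung. Of 15 measured partners of netrin signalling, out of 17 listed, 8 rose in cortex and 0 were higher in lung. These shares towards cortex were 28.6%, 38.5% and 53.3%, beside 10.4% of all genes. The medians were 0.24, 0.52 and 1.03 log2 units, beside -0.09 over all genes. Arhgef15, an endothelial exchange factor downstream of Eph receptors, was 3.01-fold higher in lung (adjusted p = 0.0374), at 9.03, 10.01, 10.82 and 8.66 in cortex and 11.08, 10.97, 11.23 and 11.59 in lung. Its highest cortex arrays were 22 and 19, as for Ephb4. Adam10, the protease that cleaves ephrins, differed by -0.16 (adjusted p = 0.710). The phosphatase Ptpro, which dephosphorylates Eph receptors, rose 35.7-fold in cortex (adjusted p = 9.41e-06). Anks1b, an ankyrin-repeat adaptor, rose 7.34-fold (adjusted p = 0.00225).

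Downstream of Robo, the GTPase-activating protein Srgap3 rose 27.8-fold in cortex (adjusted p = 3.06e-05). Gpc1, a glypican that carries Slit-binding heparan sulfate, rose 15.1-fold (adjusted p = 0.000453). The Slit partner higher in lung was the syndecan Sdc1 (1.74-fold, adjusted p = 0.00487), named here after its value was seen. In the netrin list the Dcc ligand Draxin rose 18.1-fold in cortex (adjusted p = 2.56e-05). Dscam, an adhesion receptor that also binds netrin, rose 11.6-fold (adjusted p = 0.000232). Neo1, the Dcc relative neogenin, lay at 11.33, 11.11, 10.98 and 11.11 in cortex and at 9.64, 8.11, 9.14 and 6.48 in lung. Its lung arrays spread widely around a difference of 2.79 (6.92-fold, adjusted p = 0.0128). Each of these partners higher in cortex was measured beside the neuronal means given above.

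Probe sets of a gene did not always give the same size of difference. In all, 79 probe sets named a member alone, and 22 members had several. For 7 of these, another probe set had the opposite sign, and for 0 of them was it called. Epha3 ranged from 0.80 to 4.18 and Epha5 from 3.07 to 4.6, all called towards cortex, whereas the 4 probe sets of Efnb2 gave 0.14 to 0.53 with no call. Efna2, Efna3 and Slit1 each had a second probe set called higher in cortex (1.07, 1.29 and 2.22). Averaging all probe sets of a gene gave 14 members higher in cortex and 2 higher in lung, beside 1807 and 1542 of all genes.

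**Figure D5:**
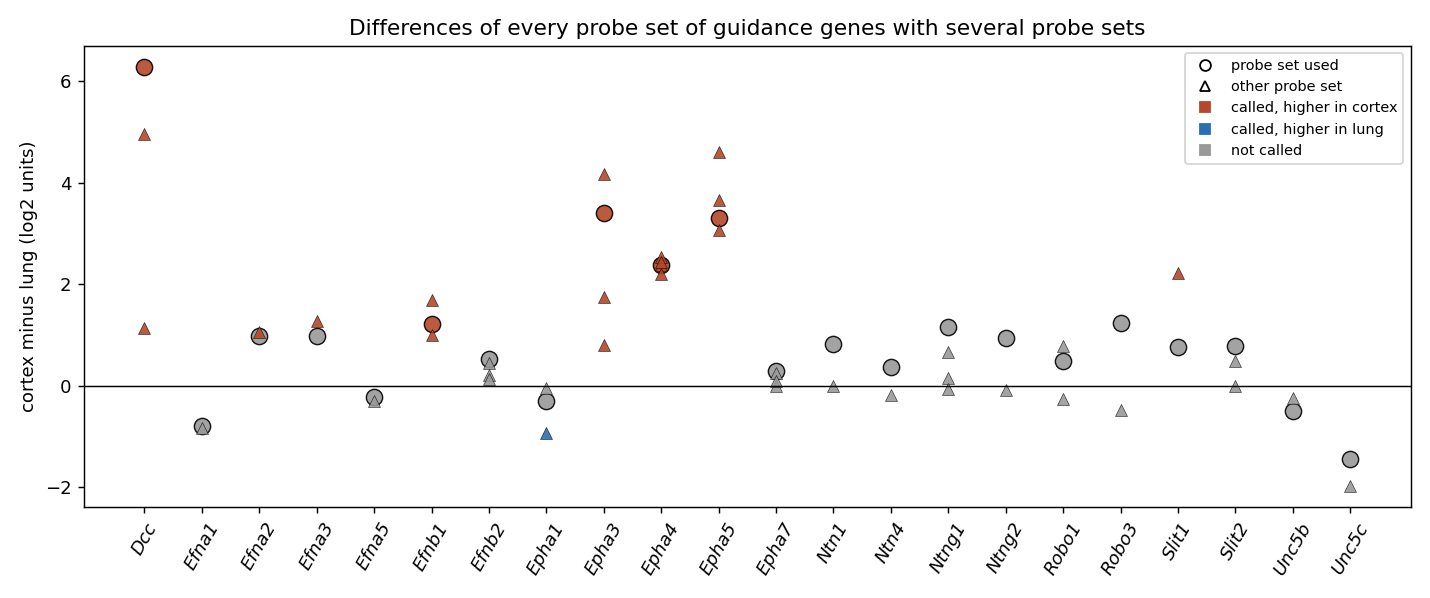
Cortex minus lung, in log2 units, for every probe set of the 22 guidance genes with several, with the probe set used as a circle and others as triangles, coloured by the call over all probe sets. The Dcc probe sets span 1.14 to 6.29, and those of Epha4 stay within 2.2 to 2.54.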

How the data were processed

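RNA from the sorted cells was amplified linearly and hybridised to Affymetrix mouse arrays, per the labels' protocols. Per the submitters' processing notes, the log2 values the authors deposited for each probe set were normalised with RMA in affy, with no version given. Control probe sets were left out, and a gene was read from the probe set naming it alone with the highest mean. Cortex was compared with lung on 18193 genes (4 arrays per tissue) by linear models in limma 3.58.1 under R 4.3.3, with moderated variances, and p-values were adjusted by Benjamini-Hochberg over all genes. A call is an adjusted p under 0.05. Folds are 2 to the power of the log2 difference, and RMA background correction compresses folds of weakly read genes. The number of arrays limits the precision. The fit was tested on simulated data. Members named with full values are those called and those with known roles in vessels, plus members whose arrays did not overlap, the 2 called partners with the largest difference in each list, and Arhgef15, Adam10 and Neo1. The members, lists and rules were chosen with earlier results of these data known. Alternatives were the sample number as a block, centring, array weights, a filter on dim genes, pan-endothelial scaling, other probe set rules, another prior and leaving out arrays. Leaving out the numbers 19 and 18 together was chosen after seeing the data. Promoter windows and names came from RefSeq (GRCm38.p6), and no coordinate was taken for the probes.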

Additional observations from a re-analysis of the deposited data

Results flagged for a closer look

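In 6 of 78 groups of 4 arrays (39 genes in each tissue), 1 array lay apart from the other 3 by a larger share of the group's range than Dixon's 95% critical value, which chance passes in about 1 of 20 groups. Efnb1 was low on cortex 19, with a gap of 0.917 of the range. Slit1 was high on cortex 72, with a gap of 0.872. Efnb2 was low on lung 18, with a gap of 0.930. Ntn3 was high on lung 72, with a gap of 0.922. Epha6 was low on array 22 in both tissues, with gaps of 0.913 in cortex and 0.916 in lung. Of these genes only Efnb1 was called.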

How the results depend on the processing

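Dcc, Efnb1, Efnb3, Epha4, Epha5 and Robo2 kept their calls whenever 1 array, or both arrays of 1 number, were left out, but Efnb1, Efnb3 and Epha5 lost them without the numbers 19 and 18 together. Leaving arrays out gave 1248 to 1966 genes higher in cortex and 675 to 1274 higher in lung over all genes, 8 to 12 and 0 to 2 over the members, 2 to 4 ligands and 5 to 8 receptors higher in cortex, and 0 to 2 receptors higher in lung. Samples were not treated as paired, since the labels do not say whether equal numbers mark the same litter. Deviations of same-numbered samples correlated at 0.335 and 0.307 for 72 and 18 but at -0.162 and 0.009 for 22 and 19. These correlations do not settle it. With the number as a replicate block, 1801 and 1342 genes were called, and 4 ligands were higher in cortex and 2 members, both receptors, higher in lung: Efna2 (adjusted p = 0.0284), Ntng1 (0.0308) and Unc5c (0.0464) passed and Robo3 (0.0509) did not. Median centring called 2410 genes and 2 members, both receptors, higher in lung, and turned Epha10 to -0.10. Array weights called 2233 genes and 2 receptors higher in lung, and 6 ligands and 9 receptors higher in cortex. The mean of all probe sets gave 6 ligands and 8 receptors higher in cortex. The probe set with the highest variance gave 4 ligands and 9 receptors higher in cortex, and each of these 2 rules gave 2 receptors higher in lung. Pan-endothelial scaling moved the median of all genes by over 1 log2 unit, to 1.13. It called 5443 genes, 24 members and 11 ligands higher in cortex, and 148 genes and 0 members higher in lung. The same shift, applied to every gene, turned Efna1 (0.43), Efna4 (1.02), Efna5 (1.0), Epha1 (0.92), Epha2 (0.61), Epha6 (1.21), Epha8 (1.19), Ntn3 (1.06), Ntn5 (0.84), Robo4 (0.15), Slit3 (0.31) and Unc5b (0.72). Without the numbers 19 and 18, 458 genes, 4 members, all receptors, and 0 ligands were higher in cortex, 197 genes and 0 members were higher in lung, and Efna4 (0.041), Epha6 (0.016) and Ephb3 (-0.023) turned. That alternative leaves 2 arrays per tissue. Leaving out arrays also turned uncalled genes, with ranges of -0.46 to 0.19 for Efna4, -0.68 to 0.11 for Efna5, -0.079 to 0.030 for Epha6, -0.013 to 0.47 for Epha7, -0.16 to 0.17 for Epha8 and -0.91 to 0.025 for Unc5b. The cause of these shifts was not tested.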

Other observations

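Some members are neighbours in the RefSeq annotation of GRCm38.p6, with differences that were unlike in sign or only in size. Efna1, Efna3 and Efna4 lie in a row on chromosome 3 with 0 other coding genes between them, and their differences, cortex minus lung, were -0.79, 0.99 and -0.20 log2 units, none of them called. Robo3 and Robo4 are direct neighbours on chromosome 9, with differences of 1.24, called, and -1.07, not called. Robo1 and Robo2 are direct neighbours on chromosome 16, with differences in the same direction, 0.49, not called, and 2.34, called. The difference between neighbours was not itself tested.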
